A study of Mus musculus with 6 samples.

Results

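The genes described here are the tumour suppressor p53 with a set of its known regulators and target genes, and the polo-like kinase genes Plk2 and Plk3. They were chosen by name, with earlier results of these data known, as 10 genes: Trp53, Mdm2, Cdkn1a, Ccng1, Sesn1, Sesn2, Gadd45a, Perp, Plk2 and Plk3. Gene probes whose only symbol in the platform's annotation table is one of these numbered 11, for 9 of the 10 genes, out of 21615 single-symbol probes for 18069 genes in all. That table gives no probe of the name Trp53, but the scanner output names 1 further probe as Trp53, and its values are given apart from the 11. Sesn1 and Plk3 have 2 probes each. The data are 6 single-colour CodeLink mouse arrays of neurosphere cultures, floating clusters of neural precursor cells, grown from C57BL/6 embryos of embryonic day 12.5. The tissue taken was the dorsal telencephalon, the future cortex, and the serum-free medium held bFGF, EGF and LIF. In 3 cultures (control) a 2'-O-methyl modified nonsense oligonucleotide, named in the labels for EGFP, had been transfected. In the other 3 (anti-miR-335) a 2'-O-methyl antisense oligonucleotide against the microRNA miR-335 had been transfected. All 6 cultures therefore carry a transfected oligonucleotide, none was left untransfected, and the labels give the treatment time as 24 without a unit. The submitters describe the replicates as independent but not at which step they were split. The p-values therefore speak only of the scatter among these 6 samples, which may be technical. The question was whether mRNA levels of these genes differ when miR-335 is blocked; levels of the microRNA itself were not analysed here.

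p53 is a transcription factor that is held at a low level by the ubiquitin ligase MDM2 and accumulates after DNA damage and other stress. It then switches on genes that stop the cell cycle, repair DNA, limit oxidative stress and growth signalling, or start apoptosis, and Mdm2 is itself among these targets. The polo-like kinases Plk2 and Plk3 are relatives of the mitotic kinase Plk1. Both were first described as genes induced within minutes by growth factors, and both have been linked to the DNA damage response. In the developing cortex, p53 is known for limiting the survival and self-renewal of neural precursors.

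The blocked microRNA is shown first, since it defines the treated group. Its mature arms, from RefSeq (GRCm38.p6, chromosome 6, plus strand), are printed with the seed, bases 2 to 8, in capitals. The labels do not say which arm the oligonucleotide pairs with.
mmu-miR-335-5p: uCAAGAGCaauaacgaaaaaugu
mmu-miR-335-3p: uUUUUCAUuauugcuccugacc

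Promoter windows of 250 bases before the annotated start were found in RefSeq (GRCm38.p6) for 9 of the 10 genes, in 11 windows. They were searched on both strands for the 10-base p53 consensus element, which is its own reverse complement and of which p53 binds a pair. At least 1 exact copy lay in the windows of 6 of these 9 genes (Trp53, Mdm2, Cdkn1a, Ccng1, Gadd45a and Sesn1), against 7.13% of all 32851 windows. The share is of single windows, while Cdkn1a and Sesn1 have more than 1 window. The genes were chosen by name, known p53 targets among them, so this count is a description only. A pair without spacer, with at most 1 of its 20 positions off the consensus, lay in the windows of Ccng1 and Cdkn1a, against 0.0761% of all windows. The sites are printed because both are known p53 targets whose levels are given below; capitals mark the matched bases, flanked by 10 bases on each side. The pairs are from chr11:40755452-40755491 (minus strand, Ccng1) and chr17:29090918-29090957 (plus strand, Cdkn1a).
Ccng1 pair: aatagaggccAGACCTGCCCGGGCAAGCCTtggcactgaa
Cdkn1a pair: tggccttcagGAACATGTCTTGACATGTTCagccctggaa
Cdkn1a holds a further copy outside its pair, 73 to 64 bases before the same start, which is not printed. Its other window (chr17:29093519-29093768, plus strand) holds no copy. Copies of the single element outside such a pair are shown for Trp53 (chr11:69580274-69580303, plus strand), Mdm2 (chr10:117710925-117710954, minus), Gadd45a (chr6:67037428-67037457, minus) and Sesn1 (chr10:41887256-41887285, plus).
Trp53: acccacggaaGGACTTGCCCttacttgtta
Mdm2: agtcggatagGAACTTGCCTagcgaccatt
Gadd45a: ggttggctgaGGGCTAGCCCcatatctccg
Sesn1: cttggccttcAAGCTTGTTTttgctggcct
A match is a description of these letters and does not show that p53 binds there.

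The windows of Plk2 and Plk3 are printed because these kinase genes lay in opposite directions in the data below. Capitals mark the cyclic AMP response element TGACGTCA and its core TGACG, the recognition letters of CREB, a factor that switches on activity-induced genes. Plk2 holds the whole element 62 to 55 bases before its start (1.55% of all windows hold it). Plk3 holds the core, which is also part of the whole element, 132 to 128 and 63 to 59 bases before its start; 17.8% of all windows hold the core, among them also one of Sesn1. The AP-1 letters TGANTCA (6.75% of windows) and the CArG box of serum response factor (1.47%) were found in none of the 11 windows. The Egr letters GCGNGGGCG (4.7%) were found only in a window of Sesn1. The windows are chr13:110394794-110395043 (plus strand) for Plk2 and chr4:117133964-117134213 (minus strand) for Plk3.
Plk2: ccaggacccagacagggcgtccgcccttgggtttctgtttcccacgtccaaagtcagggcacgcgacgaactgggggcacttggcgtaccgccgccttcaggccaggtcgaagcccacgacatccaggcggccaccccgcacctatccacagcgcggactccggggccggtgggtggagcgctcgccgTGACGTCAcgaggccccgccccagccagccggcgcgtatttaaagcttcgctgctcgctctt
Plk3: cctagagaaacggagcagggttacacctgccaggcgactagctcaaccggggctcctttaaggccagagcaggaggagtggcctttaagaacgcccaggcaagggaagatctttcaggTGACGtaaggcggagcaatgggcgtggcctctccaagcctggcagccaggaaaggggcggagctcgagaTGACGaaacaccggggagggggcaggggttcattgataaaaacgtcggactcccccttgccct

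Intensities are linear and in units of each array's median. A probe counts as above background on an array when it exceeds a limit set from the negative control spots, between 0.492 and 0.692. Groups were compared with limma on log2 values over 34847 probes, with Benjamini-Hochberg adjustment and a threshold of 0.05, and differences are given as anti-miR-335 minus control. Control replicate 1 stood apart: with all arrays 0 probes passed by limma (0% of those tested; 3162 had an unadjusted p under 0.05), without it 1100 did (3.17%), so each result is also given without it where that matters. Of 11 neural precursor markers 10 were above background on at least 3 arrays, Nes and Sox2 among them; Hes1 was above it on none. Of the markers of other cells, 4 of 6 neuronal, 2 of 5 microglial, 2 of 5 endothelial, 1 of 6 mesenchymal, 0 of 5 epithelial and 0 of 3 erythroid genes were above it on at least 3 arrays. The summed intensity of the 6 neuronal markers lay between 8.97 and 12.6 in the controls and between 11.5 and 15.7 in the anti-miR-335 arrays. Higher means were found for 6 of 6, against 57.4% of all genes, though Rbfox3 was above background on 1 array and Stmn2 on none. Dcx, a gene of young neurons, lay at 4.99 ± 1.18 against 2.42 ± 0.144 (SD, n = 3 each; adjusted p = 0.333 by limma), and Snap25, Map2 and Tubb3 were also above background on all 6 arrays. The sum of the 5 microglial markers lay between 6.39 and 6.73 in the controls and between 5.13 and 5.67 in the anti-miR-335 arrays. Most of that sum is Trem2, at 3.27 ± 0.126 against 4.86 ± 0.221 (adjusted p = 0.367 by limma), while 3 of the 5, Cx3cr1, Aif1 and Itgam, had higher means in the anti-miR-335 arrays. Cx3cr1 was above background on 5 arrays, Aif1 on 1 and Ptprc and Itgam on none. Among the precursor markers, Hes5 had the smallest p, at 4.44 ± 0.068 against 2.60 ± 0.434 (adjusted p = 0.342 by limma). Dcx, Trem2 and Hes5 are named as the smallest p of their lists, chosen after their values were seen. The part of these cells in the differences below was not tested, and in bulk RNA fewer cells of a type cannot be told apart from less RNA per cell.

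With all 6 arrays, 0 of the 11 probes passed the threshold. Of the 11, dim ones included, 7 had a higher and 4 a lower mean log2 level in the anti-miR-335 arrays, where 51.9% of all probes tested were higher. Their median log2 difference was 0.06 against 0.01 over all probes tested. An unadjusted p under 0.05 was found for 2 of the 11, the brighter probes of Plk3 and Sesn1, which is 18.2% of them against 9.07% of all probes. The same 2 probes were those whose group values did not overlap, 18.2% against 14.7% of all probes with values on all arrays. With 11 probes, each share lies within about 1 probe of its background. The genes were chosen with earlier results of these data known, so the shares are descriptions only. After quantile normalization the groups of 4 probes did not overlap, Sesn2 and Gadd45a being added, where 16% of all probes did not. Above background on all 6 arrays were 7 of the 11 probes, those of Cdkn1a, Ccng1, Gadd45a, Sesn2 and Plk2 and the brighter ones of Sesn1 and Plk3.

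**Figure D1:**
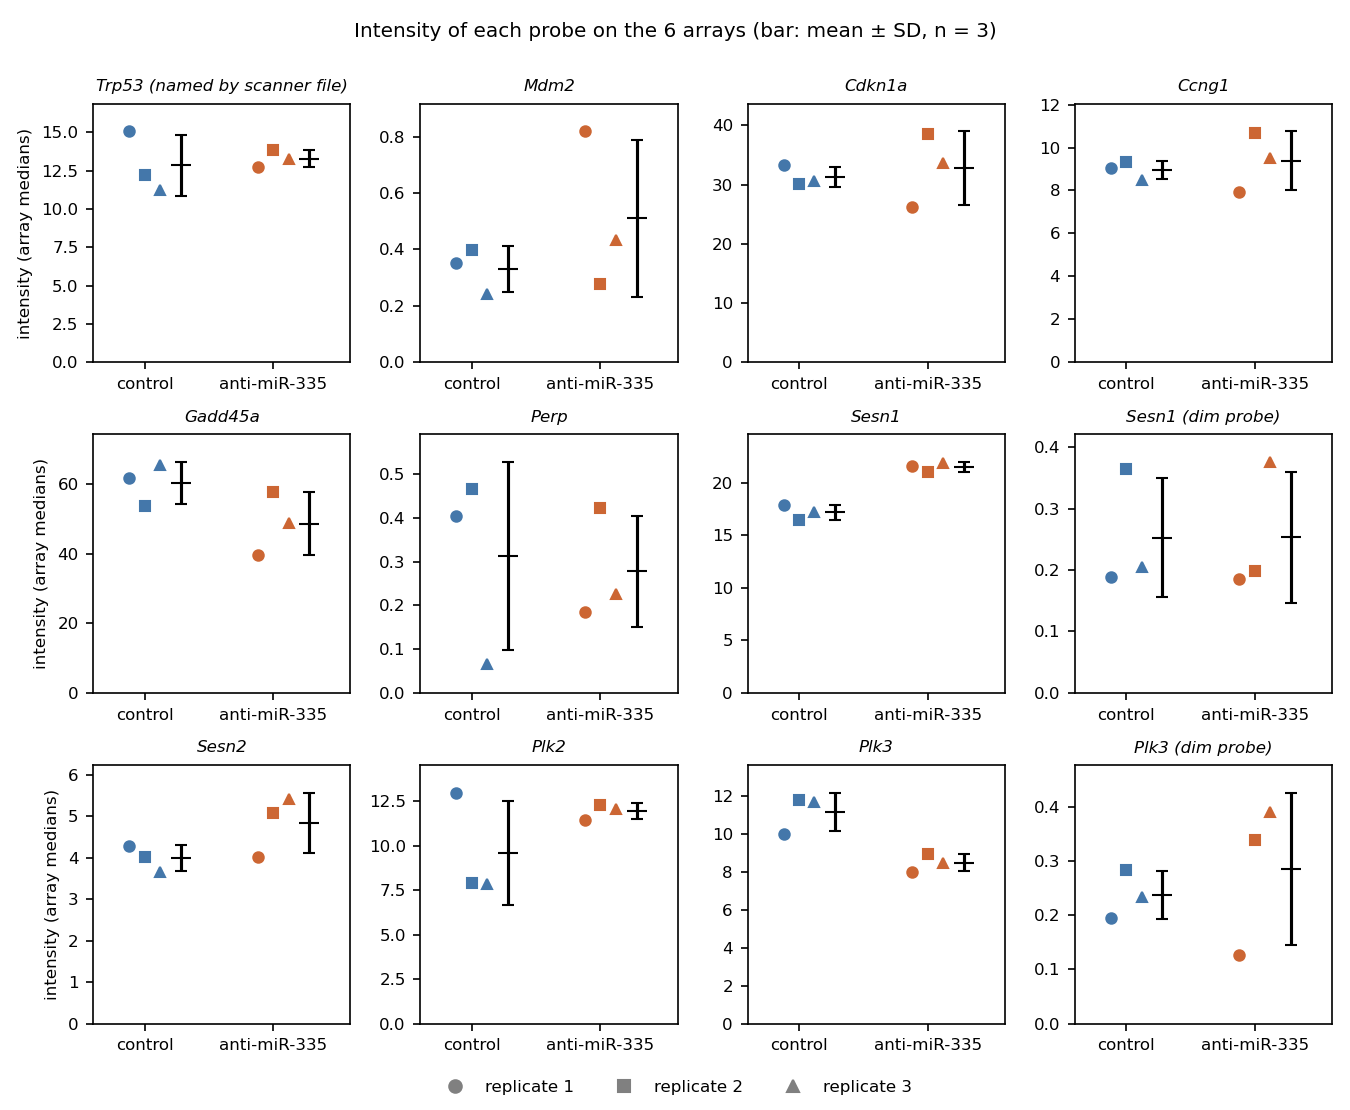
Intensity in array medians (linear vertical axes that start at 0) of the 11 probes and of the probe that the scanner output names Trp53. Symbols are the 3 replicates, and the black bars are mean ± SD of each group (n = 3). Groups separate only for the brighter probes of Sesn1, where anti-miR-335 is higher, and of Plk3, where it is lower; for Plk2, control replicate 1 lies above all anti-miR-335 arrays.

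The p53 gene itself showed no difference beyond the spread of its arrays. The probe that the scanner output names Trp53 read 15.1, 12.2 and 11.3 on control replicates 1, 2 and 3 and 12.7, 13.9 and 13.3 on the anti-miR-335 replicates. All anti-miR-335 values lay inside the control range. The log2 difference was 0.06 ± 0.12 (SE; adjusted p = 0.916 by limma), with a 95% interval from 0.864-fold to 1.26-fold. This probe was added after the files were read, because the annotation table has no Trp53. Mdm2, whose protein is the main brake on p53, was at the limit of detection. It read 0.352, 0.397 and 0.240 in the controls, none above background, and 0.819, 0.279 and 0.434 in the anti-miR-335 cultures, where only replicate 1 was above background. No fold is given for Mdm2, since the mean of the brighter group lies below the background limit of most arrays.

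The p53 targets Cdkn1a and Ccng1 each had nearly equal means in the 2 groups. Cdkn1a encodes p21, the inhibitor of cyclin-dependent kinases through which p53 halts the cycle. It read 33.3, 30.1 and 30.6 in the controls and 26.2, 38.5 and 33.6 in the anti-miR-335 cultures, which thus held both the lowest and the highest value. The difference was 1.04-fold, with a 95% interval from 0.835-fold to 1.28-fold (adjusted p = 0.943 by limma). Ccng1, cyclin G1, which recruits a phosphatase to MDM2, read 9.06, 9.30 and 8.47 against 7.94, 10.7 and 9.51. Its difference was also 1.04-fold, with an interval from 0.861-fold to 1.26-fold (adjusted p = 0.92 by limma). For both genes the anti-miR-335 replicates spread more widely than the controls, with a coefficient of variation of 18.9% against 5.48% for Cdkn1a and of 14.7% against 4.78% for Ccng1, and replicate 1 was the lowest. Changes inside these intervals cannot be resolved with 3 arrays per group.

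Gadd45a, a damage-induced protein that binds PCNA and activates stress kinases, had a lower mean in the anti-miR-335 cultures, unlike Cdkn1a and Ccng1. It read 61.7, 53.9 and 65.6 in the controls and 39.6, 57.7 and 48.8 in the anti-miR-335 cultures. Replicates 1 and 3 of the treated group lay below all controls, while replicate 2 lay inside the control range. The log2 difference was -0.32 ± 0.15 (SE; adjusted p = 0.556 by limma), and an exact two-sided permutation test over the 6 arrays gave p = 0.2, where 0.1 is the smallest that 3 against 3 can give. Its family relatives did not follow it: Gadd45g lay at 81.9 ± 12.2 in the anti-miR-335 cultures against 64.2 ± 4.55 in the controls (SD, n = 3 each; adjusted p = 0.504 by limma), and Gadd45b was at 7.96 ± 2.76 against 7.93 ± 2.91.

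The sestrins, stress proteins that lower reactive oxygen and restrain the growth kinase mTORC1, both had higher means in the anti-miR-335 cultures. The brighter Sesn1 probe read 17.8, 16.4 and 17.2 in the controls and 21.6, 21.0 and 21.9 in the anti-miR-335 cultures. The groups stood 3.14 units apart at their closest, and the replicates within each differed by little. The ratio was 1.25-fold, with a 95% interval from 1.08-fold to 1.45-fold; the log2 difference of 0.32 ± 0.09 (SE) had an adjusted p of 0.422 by limma and missed the threshold, and the exact permutation p was 0.1. The dimmer Sesn1 probe was not above background on any array, so it bears on neither direction. Sesn2 read 4.28, 4.02 and 3.67 against 4.03, 5.09 and 5.42. Replicates 2 and 3 of the treated group lay above all controls, but replicate 1 lay inside their range; the ratio was 1.21-fold (interval 0.975 to 1.49) with an adjusted p of 0.599 by limma. Sesn3, a relative that is usually placed under FoxO control, read 103 ± 6.88 against 99.9 ± 15.5 (SD, n = 3 each).

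Perp, a membrane protein of desmosomes that takes part in p53-dependent apoptosis, was not above background on any of the 6 arrays. Its readings ran from 0.0667 to 0.467, all below the background limits, and have no order. No expression of Perp was detectable on these arrays, and the epithelial markers were likewise not above background on 3 or more arrays.

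The mean differences of the polo-like kinase genes had opposite signs. Plk3 read 10.02, 11.8 and 11.7 in the controls and 8.03, 8.94 and 8.49 in the anti-miR-335 cultures, on its brighter probe. Every treated value lay below every control, with a gap of 1.08 units between the groups. The log2 difference was -0.40 ± 0.11 (SE), a 1.32-fold lower level, and was ranked 347 of 34847 by p, but its adjusted p of 0.414 by limma missed the threshold; the exact permutation p was 0.1. The dimmer Plk3 probe did not exceed background on any array and gives no direction.

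Plk2 read 12.99, 7.94 and 7.86 in the controls and 11.5, 12.3 and 12.1 in the anti-miR-335 cultures. Control replicate 1 was the highest of the 6 arrays, and the other 2 controls were the lowest. With all arrays the log2 difference was 0.36 ± 0.18 (SE; adjusted p = 0.586 by limma). Without control replicate 1 it was 0.60 ± 0.08 with an adjusted p of 0.0184. Leaving the same array out moved Plk3 to -0.47 ± 0.09 with an adjusted p of 0.0282, and Sesn1 to 0.35 ± 0.08 with an adjusted p of 0.052, which still missed the threshold. In that fit Plk2 passed as higher and Plk3 as lower, 2 of 11 probes (18.2%) against the 3.17% of all probes that passed. That fit compares 2 controls with 3 treated arrays. The array was singled out because its omission raises the count over all probes. That choice rests on the same values, and Plk2 itself was highest on that array. The adjusted p values and the share of this fit are therefore descriptions and not independent support.

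**Figure D2:**
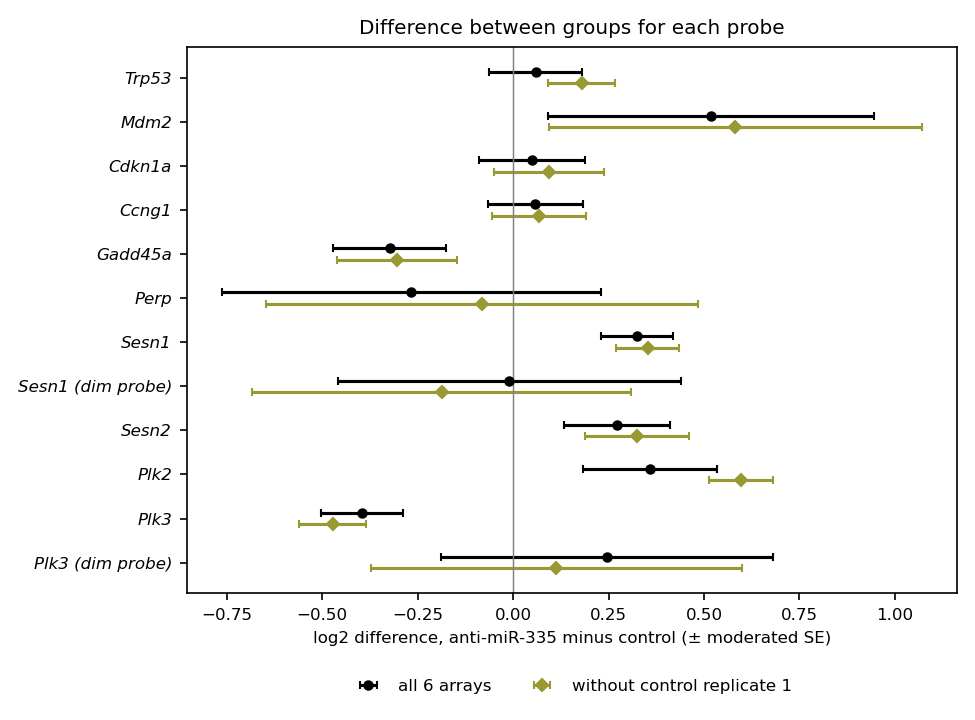
Log2 difference between anti-miR-335 and control cultures for each probe, with its moderated SE, over all 6 arrays (black circles) and without control replicate 1 (diamonds). Without that array, Plk2 moved from 0.36 to 0.60 and Plk3 from -0.40 to -0.47, while Cdkn1a and Ccng1 stayed under 0.10; the wide bars belong to Mdm2, Perp and the dim probes at background.

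Since Plk2 and Plk3 are also growth factor-induced genes, the 12 genes of an immediate early list, those switched on within minutes of a stimulus, were read on the same arrays. Control replicate 1 lay 0.79 (median log2 over the 12) above the mean of the other 2 controls. The same quantity was 0.94, 1.40 and 1.06 on anti-miR-335 replicates 1, 2 and 3. Plk2 lay 0.72 above that mean on control replicate 1 and 0.54, 0.64 and 0.61 on the anti-miR-335 arrays. Plk2 was thus high on the same 4 arrays as the immediate early median, though Atf3 and Fosb of that list were lowest on control replicate 1. Among these 4 arrays, control replicate 1 held the highest Plk2 level but the lowest immediate early median. Genes outside the list also had this pattern. Pax6, a precursor marker, read 18.38, 11.68 and 11.61 in the controls and 14.65, 15.66 and 16.65 in the anti-miR-335 cultures. How many of all probes have it was not counted, and a link of Plk2 to the immediate early genes was not tested. Plk3 was low on these 4 arrays, at -0.23 on control replicate 1 and at -0.55, -0.40 and -0.47 on the others. The brighter Sesn1 probe lay at 0.08 on control replicate 1, close to the other controls, and at 0.36, 0.32 and 0.38 on the anti-miR-335 arrays. What sets control replicate 1 apart was not tested.

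**Figure D3:**
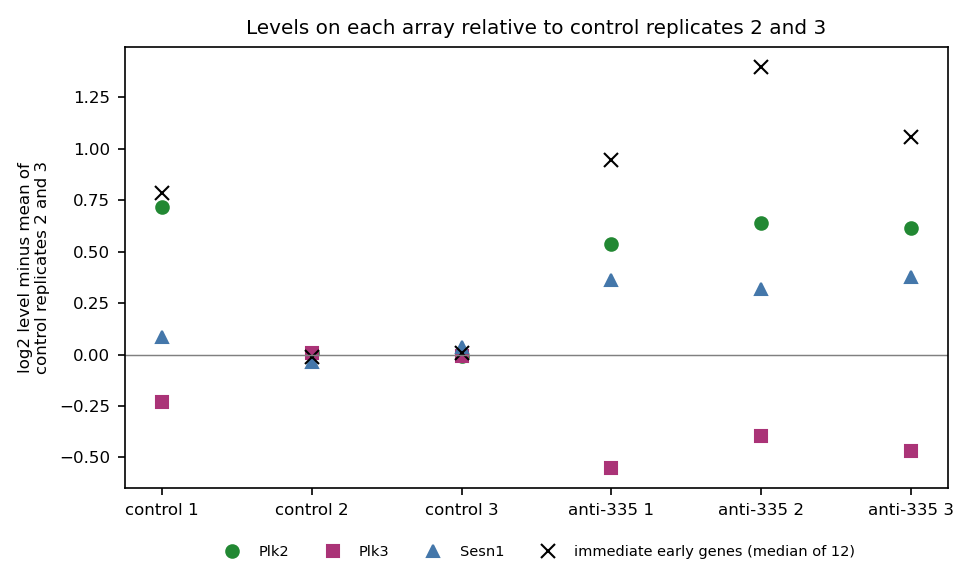
Log2 level on each of the 6 arrays minus the mean of control replicates 2 and 3, for the brighter or only probes of Plk2, Plk3 and Sesn1, and the median of 12 immediate early genes. On control replicate 1, Plk2 (0.72) lies above the anti-miR-335 arrays, the immediate early median (0.79) below all 3 of them but above the other controls, Plk3 (-0.23) lies between the groups and Sesn1 (0.08) with the controls.

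Other genes of the p53 pathway were read from lists, using the brightest probe of each gene. Of 29 further p53 targets 25 were measured: 20 had a higher and 5 a lower mean in the anti-miR-335 cultures, 0 passed, and the median log2 difference was 0.15, against 0.05 and 57.4% higher over all 18010 genes. An unadjusted p under 0.05 was found for 4 of the 25, 3 of them higher, against 9.95% of all genes. The lower gene, Dram1, was not above background on any array, so it gives no direction. Btg2, an antiproliferative gene that is also induced by growth factors, lay at 25.3 ± 2.10 against 16.5 ± 4.44 in the controls (SD, n = 3 each; adjusted p = 0.41 by limma). Without control replicate 1 Btg2 rose with an adjusted p of 0.0104, the only gene of this list to pass in a fit where 4.13% of all genes did. Ei24, a membrane protein gene induced by p53, lay at 13.5 ± 0.991 against 11.2 ± 0.824 (adjusted p = 0.51 by limma). Bbc3, which encodes the apoptosis trigger PUMA, read 2.77 ± 0.264 against 2.76 ± 0.404.

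Of 21 regulators of p53 20 were measured, 16 with a higher and 4 with a lower mean, with a median log2 difference of 0.19. With all arrays 0 passed, and 0 passed without control replicate 1, where 4.13% of all genes did. An unadjusted p under 0.05 was found for 4 of the 20, 3 of them higher, against 9.95% of all genes. The lower gene, Atr, was not above background on any array. Mdm4, the partner of MDM2 that masks the p53 activation domain, lay at 3.26 ± 0.368 against 2.48 ± 0.270 (SD, n = 3 each; adjusted p = 0.491 by limma). Trp73, a p53 relative with the smallest p of the list, was not above background on any array, so no value is drawn from it. Among 9 measured relatives of the 10 genes 6 had a higher and 3 a lower mean, with a median of 0.06, and 0 passed. Of the other polo-like kinases, Plk4, which drives centriole duplication, read 1.18 ± 0.232 against 1.11 ± 0.311, and the probes of Plk1 and Plk5 were not above background on any array. Ccng2, a relative of Ccng1, read 2.79 ± 0.233 against 2.29 ± 0.142 (adjusted p = 0.568 by limma).

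The immediate early list had a median log2 difference of 0.86, with 12 of 12 genes higher (57.4% over all genes), 8 with an unadjusted p under 0.05 (9.95% of all genes) and 0 past the threshold. Jun lay at 56.0 ± 3.98 against 30.2 ± 8.31 (SD, n = 3 each), Fos at 147 ± 40.2 against 69.6 ± 12.7 and Egr1 at 34.9 ± 7.19 against 13.4 ± 11.5, transcription factor genes all 3. Their adjusted p values by limma were 0.342, 0.367 and 0.41. Without control replicate 1, 8 of the 12 passed, all 8 higher, in a fit where 4.13% of all genes passed. The lists were chosen with earlier results of these data known. They were described by counts and medians only, and nothing is called particular to them.

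**Figure D4:**
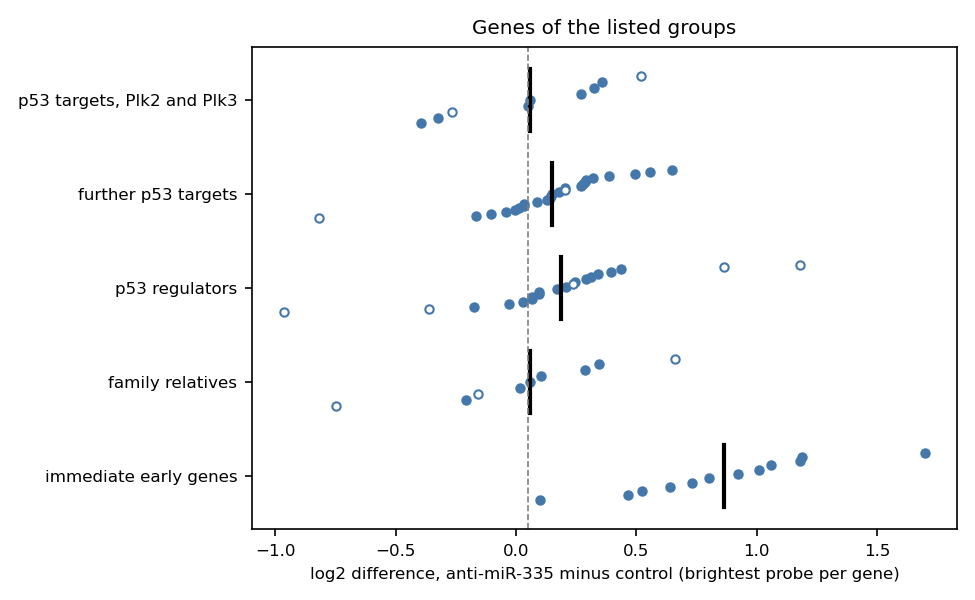
Log2 difference between groups for each gene of 5 lists (brightest probe per gene). Open circles are genes above background on fewer than 3 arrays, thick bars are list medians, and the dashed line is the median of all 18010 genes (0.05). The p53 targets with Plk2 and Plk3 spread to both sides of 0 around a median of 0.06, while the 12 immediate early genes all lie above 0 around 0.86.

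The genes whose pattern over the 6 arrays was most like that of Plk2 and Plk3 were found by the root mean square difference of log2 values centred on their own mean. For Plk2 these were Nbea (0.029), Plscr4 (0.032) and Prdx1 (0.035) among 8798 candidate probes, whose median was 0.28. Each of the 3 was also high on control replicate 1: Prdx1 read 88.0 there against 51.8 and 51.2 on the other controls. For Plk3 they were Palb2 (0.032), Pex5l (0.035) and Zeb1 (0.042) among 10660, whose median was 0.31. Palb2 read 29.6, 36.3 and 33.6 in the controls and 24.0, 26.6 and 24.6 in the anti-miR-335 cultures. With 6 arrays and this many candidates these near matches are given as a description.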

How the data were processed

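Per the labels, CodeLink images were processed in the CodeLink software (4.1.0.29054 per the file headers) with global median normalization, so the deposited intensities are linear and relative to each array's median. Scanner output was used for replicate 1 of each group; there all 35976 and 36032 values equalled the normalized intensity within 0.0001, row by row, and raw intensity was spot mean minus background median. Gene names came from the platform table, checked against RefSeq (GRCm38.p6): 21615 gene probes had 1 symbol, 681 several and 12671 none, and 0 symbols changed. The scanner output's accession or description gave the same gene for only 8 of the 11 probes. The others rest on the platform table's symbol alone. Intensities under the 5th percentile (0.163) were set to that value before taking log2. limma 3.58.1 in R 4.3.3 (lmFit, eBayes with an intensity trend, no covariate) compared 3 with 3 arrays. The background limit was the negative controls' median plus 3 scaled median absolute deviations; 59.9% to 67.3% of gene probes exceeded it. For arrays, their number limits the precision. Scripts were tested on simulated data.

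All 10 genes are named with every probe; each pathway list adds the genes past the threshold or, where there were none, its 2 genes with the smallest p, with a few fixed names (Btg2, Bax, Bbc3, Mdm4, Plk1, Plk4, Fos, Egr1; Bax had no single-symbol probe). The genes and lists were chosen with earlier results of these data known. Alternatives were quantile normalization, other floors, dim probes left out, no trend, array weights (REML weights were added after seeing the data), a replicate block, left-out arrays and unscaled scanner values. With scanner headers of 1 array per group, no test of slide or scan as a batch was possible.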

Additional observations from a re-analysis of the deposited data

How the results depend on the processing

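The count of 0 probes over all genes was 1 after quantile normalization, 5 with array weights by limma's default method and from 0 to 1571 with arrays left out (1100 without control replicate 1, 1571 without the replicate 1 pair); it stayed at 0 with the other floors, without dim probes and without the trend. Of the 11 probes, 0 passed with these weights (Plk3 had an adjusted p of 0.0876 by limma) and 0 to 2 with arrays left out. Weights estimated by REML on probes with values on all arrays, an alternative chosen after the default's calls were seen, gave 474 probes over all genes and 1 of the 11 (Plk3, -0.44, adjusted p = 0.0431 by limma), so the call on Plk3 depends on how the weights are estimated. The count with an unadjusted p under 0.05 was 4 of 11 (36.4%) with either kind of weights, where 16.1% (default) and 20% (REML) of all probes had one, and from 0 to 5 with arrays left out. The 5 (45.5%) came without the replicate 1 pair, where 20.9% of all probes had one. This count was 3 of 11 (27.3% against 10.2% of all probes) after quantile normalization. Without dim probes it was 3 of 7 (42.9% against 11%). With the other floors, without the trend or with a replicate block it stayed at 2 of 11. After quantile normalization 4 of the 11 had groups that did not overlap, against 16% of all probes. With arrays left out Plk2 lay between 0.22 and 0.63 and Plk3 between -0.47 and -0.35 on the log2 scale. On the unscaled scanner values of the replicate 1 pair, Plk2 was at -0.078 and Plk3 at -0.22, and 9 of the 12 probes moved by over 1 SD of a single array. This pair sets 1 array against 1 and holds control replicate 1. The effect of scaling therefore cannot be told apart from that of using 1 pair. Probes near 0 turned sign: after quantile normalization Ccng1 (-0.0079), Cdkn1a (-0.011), Trp53 (-0.0029) and the dim Sesn1 probe (0.050), which was at 0.015 with the 20th percentile floor, and Perp was at 0.12 with the 1st percentile floor. With arrays left out, the ranges were -0.041 to 0.18 for Ccng1, -0.10 to 0.25 for Cdkn1a, -0.030 to 0.21 for Trp53, -0.74 to 0.17 for Perp, -0.45 to 0.42 for the dim Sesn1 probe and -0.00080 to 0.63 for the dim Plk3 probe. The cause was not tested. With a replicate block 0 probes passed, and Plk3 had an adjusted p of 0.753 by limma. Deviations of same-numbered arrays correlated at -0.23, 0.04 and -0.26 over 17843 probes. These values depend on each other, because the deviations cancel out within each group. They therefore cannot decide whether same-numbered arrays had more in common than a number, and a shared preparation was not tested. Signals of Mdm2, Perp and the dim probes are limited by background.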
